A study of Sus scrofa with 6 samples.

Results

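The genes described here encode the extracellular matrix of the pig left atrium and the proteases that cut it: collagens, laminins, fibrillin, fibulin, lysyl oxidases, proteoglycans and matricellular proteins, matrix metalloproteinases (MMP), their tissue inhibitors (TIMP) and the ADAMTS proteases. They were chosen by name alone, as every probe set whose single gene symbol began with COL and a digit or with LAMA, LAMB, LAMC, FBN, FBLN, LOX, MMP, TIMP or ADAMTS, or was FN1, DCN, BGN, LUM, VCAN, SPARC, ELN, POSTN or CILP. This gave 89 probe sets for 46 genes, out of 23999 probe sets and 6765 genes with a single symbol on the array. Where a gene had several probe sets, the one that was brightest on average over the 6 arrays stood for it. Of the 46 genes, 34 lay above the limit for dim probe sets, a mean of 60.8 intensity units, and were tested with 5407 genes in all.

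RNA came from 6 male Lanyu miniature pigs aged 18 months, with 1 Affymetrix porcine array per animal and n = 2 in each group. NC animals were normal controls for which no surgery is recorded. MR animals had mitral regurgitation, the leak of blood back into the left atrium, made by a 2.8 mm hole in the posterior leaflet, and were killed 12 months later. MRV animals had the same lesion and were also given valsartan, a blocker of the angiotensin II type I receptor, in a dose of 3.43 mg/kg/day that began 1 week before the operation. The lesion and the operation that made it cannot be told apart in a comparison with NC. Each array is a piece of whole atrium, so fewer cells of a type and less RNA per cell cannot be told apart. The labels number separate animals, and p-values measure the spread between them together with technical variation.

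The matrix of the heart is made mainly by fibroblasts. Fibrillar collagens bear tension, collagen IV and laminins form the basement membrane around muscle cells and vessels, and fibrillin and fibulin build elastic fibres. Lysyl oxidases crosslink collagen and elastin, MMPs degrade matrix, and TIMPs block MMPs. Angiotensin II acting through its type I receptor is a known stimulus of matrix synthesis in cardiac fibroblasts, and matrix accumulation in enlarged atria is known as atrial fibrosis.

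The arrays were alike in their medians, from 90.2 to 93.4 intensity units. NC1 stood apart, with correlations to the other arrays from 0.955 to 0.976 across tested probe sets, which are not independent replicates, while the other pairs lay between 0.967 and 0.984. The actin 3'/5' signal ratio, a sign of RNA quality, was 1.61 and 1.91 in NC, 1.44 and 1.70 in MR animals and 2.30 and 1.87 in MRV animals, higher in MRV than in MR without overlap. Atrial muscle markers were bright on every array, with MYL4, the atrial myosin light chain, between 21034 and 21842. The ventricular myosin light chain gene MYL2 read 10693 and 2318 in MR and between 152 and 954 on the other 4 arrays. The part of the muscle markers in the results below was not tested. Values with the actin ratio as a covariate of the fit are given beside genes whose difference it moved.

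No matrix gene passed the threshold in any of the 3 comparisons (limma adjusted p below 0.05 over 14399 probe sets). The calls over all probe sets were 1 in MR minus NC (0.00694%), 0 in MRV minus MR (0%) and 0 in MRV minus NC (0%), so near absence of calls was the background. At an unadjusted limma p below 0.05 there were 4, 3 and 3 of the 34 matrix genes in these comparisons, against 242, 426 and 304 of the 5407 genes. The differences below are therefore described by the value in each animal. A log2 difference is on the scale log2(intensity + 16), which understates changes of dim genes, and SE is the moderated standard error.

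**Figure D1:**
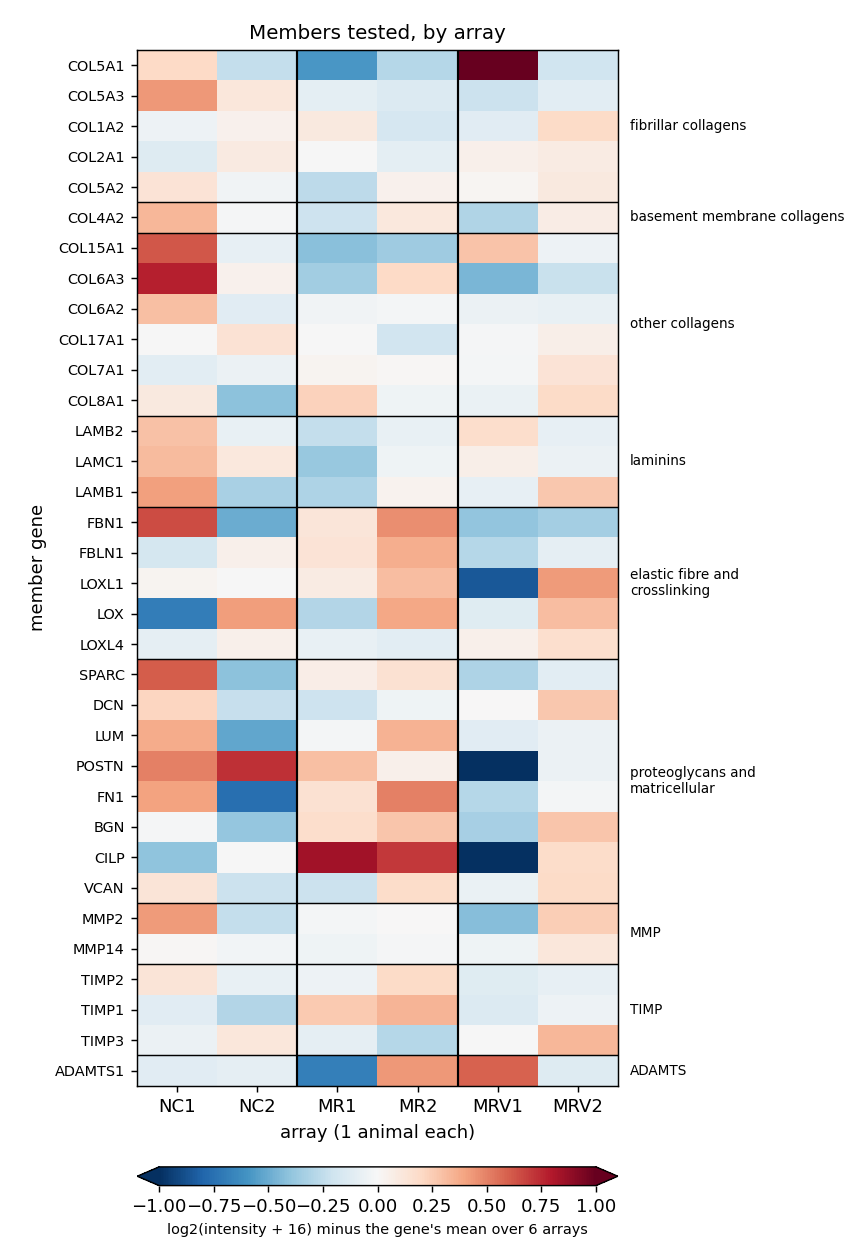
Each row is 1 of the 34 tested matrix genes, grouped by role, and each column 1 animal; colour gives log2(intensity + 16) minus the gene's mean over the 6 arrays, and the scale ends at -1 and 1, beyond which lie COL5A1, POSTN and CILP in MRV1. CILP and TIMP1 are red in both MR columns, and NC1 is red for COL6A3, FBN1, SPARC and COL15A1.

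TIMP1, the secreted inhibitor of many MMPs, had the smallest unadjusted p among the matrix genes in MR minus NC. It read 321 and 282 in NC, 423 and 447 in MR animals and 316 and 336 in MRV animals. Both MR animals lay above all 4 others, and the NC and MRV animals overlapped. The log2 difference was 0.51 in MR minus NC (SE 0.11, limma unadjusted p = 0.00465, adjusted p = 0.999955) and -0.40 in MRV minus MR (SE 0.11, limma unadjusted p = 0.0136, adjusted p = 0.584). Both comparisons use the same MR arrays, so their opposite signs are not independent. Leaving out each NC or MR array gave 0.42 to 0.60 for the first difference, and each MR or MRV array -0.44 to -0.36 for the second. In the fit with the actin ratio and with a pseudocount of 64 the first was below 0.5 log2. Over all alternatives the second ranged from -0.44 to -0.30.

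The other TIMP genes did not share that pattern. TIMP2, which also takes part in the activation of MMP2, read 1275 and 1108 in NC, 1124 and 1331 in MR animals and 1071 and 1100.0 in MRV animals. Its MRV values were the lowest, with a log2 difference of -0.17 in MRV minus MR, and the other tested probe set differed by -0.38. TIMP3, the inhibitor that stays bound to the matrix, read 187 and 213 in NC, 183 and 158 in MR animals and 196 and 250.2 in MRV animals. It was lower in MR than in NC (log2 difference -0.21) and higher in MRV than in MR (0.35, SE 0.16, limma adjusted p = 0.709), opposite in sign to TIMP1. The second TIMP3 difference was 0.19 without MRV2 and 0.55 in the fit with the actin ratio, and the first was -0.12 without MR2 and -0.13 without NC2. A dimmer tested TIMP3 probe set differed by -0.03 in MR minus NC and 0.25 in MRV minus MR, both with overlap. The TIMP2 difference was -0.050 without MR2. TIMP4, the inhibitor typical of heart muscle, lay below the limit at 15.9 to 23.1 on all arrays.

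The proteases themselves gave few measurable values. MMP2, the gelatinase that degrades collagen IV and denatured collagen, read 1081 and 676 in NC, 792 and 805 in MR animals and 594 and 951 in MRV animals. The 2 MR values lay inside the ranges of both other groups. MMP14, the membrane-bound enzyme that activates MMP2, read 80.3 to 91.7 on all 6 arrays, with log2 differences of -0.02 and 0.06 in MR minus NC and MRV minus MR. MMP1, MMP3, MMP7, MMP9, MMP13 and MMP20 lay below the limit. MMP9, a gelatinase typical of leukocytes, read 47.4 to 55.8, and MMP1 and MMP20 read 6.5 to 7.6, near the lowest value on any array of 4.8. For these 6 genes no difference was detectable at these signals.

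ADAMTS1, a secreted protease that cuts versican and aggrecan, had 2 tested probe sets that differed in their spread. The brighter read 1029 and 1048 in NC, 687 and 1512 in MR animals and 1686 and 1018 in MRV animals. The MR animals enclosed both NC values, and all groups overlapped. The dimmer read 743 and 667 in NC, 653 and 858 in MR animals and 1032 and 917 in MRV animals, so both MRV animals were above all others. Its log2 difference was 0.09 in MR minus NC, 0.37 in MRV minus MR and 0.46 in MRV minus NC (SE 0.16, limma unadjusted p = 0.0315, adjusted p = 0.905). The brighter differed by -0.02, 0.36 and 0.33. ADAMTS6 and ADAMTS20 lay below the limit.

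**Figure D2:**
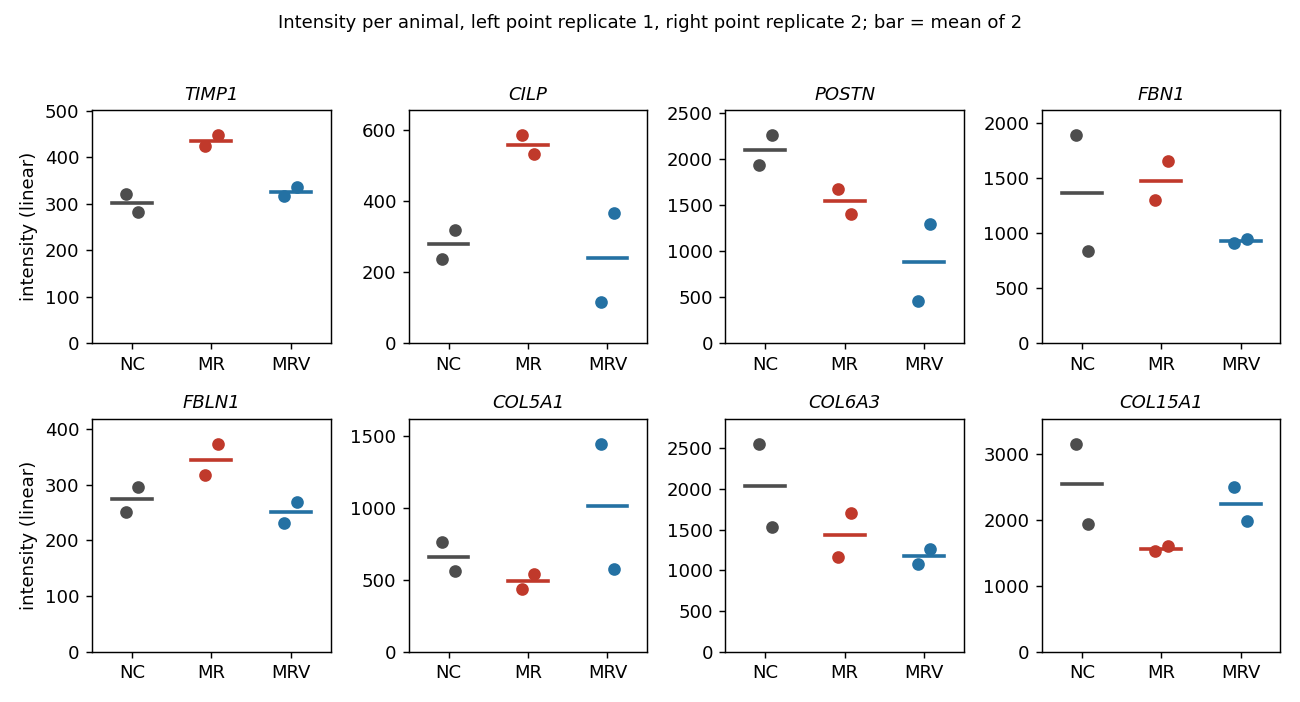
Linear intensity of 8 matrix genes in each animal, with the mean of each group of 2 as a bar and each axis starting at 0. The MR points of TIMP1 and CILP lie above all other points, the POSTN points of MRV lie below those of NC and MR, and the MRV animals are far apart for CILP, POSTN and COL5A1.

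Of the 34 matrix genes, 6 were higher and 7 lower in MR than in NC without overlap, shares of 17.6% and 20.6%, where 15.7% and 12.4% of the 5407 genes were. With a difference of at least 0.5 log2 besides, 2 genes, CILP and TIMP1, were higher and 1, COL15A1, was lower, where 1.05% and 1.26% of all genes were. The median log2 difference of the matrix genes was -0.03, with 14 of 34 higher, beside 0.01 for all genes. The counts rest on single arrays. Without NC1 they were 8 higher (BGN, CILP, COL8A1, FBN1, FN1, LUM, SPARC and TIMP1) and 1 lower (POSTN). Without NC2 they were 2 higher and 6 lower, the lower ones being COL15A1, COL5A1, COL5A3, COL6A3, LAMB1 and LAMC1. Without MR1 they were 4 higher and 2 lower, and without MR2 they were 1 higher and 5 lower.

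CILP, a matrix protein that cardiac fibroblasts secrete, read 238 and 319 in NC, 586 and 533 in MR animals and 118 and 366 in MRV animals. Both MR animals were above all others, and MRV1 was the lowest of the 6. The log2 difference was 0.98 in MR minus NC (SE 0.47, limma adjusted p = 0.999955) and -1.35 in MRV minus MR (SE 0.47, limma adjusted p = 0.655). The second was -0.59 without MRV1, -2.11 without MRV2 and -0.59 in the fit with the actin ratio. A second, dimmer probe set of CILP read 71.6 to 92.9 on all arrays and differed by 0.05 and 0.06 in these comparisons. With both probe sets averaged the first difference was 0.51.

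POSTN, which encodes periostin, a matricellular protein of activated fibroblasts and valves, read 1932 and 2259 in NC, 1676 and 1410 in MR animals and 462 and 1301 in MRV animals. Both NC animals were above both MR animals, and these above both MRV animals, so no pair of groups overlapped. The log2 difference was -0.44 in MR minus NC (SE 0.45), -0.97 in MRV minus MR (SE 0.45) and -1.41 in MRV minus NC (SE 0.45, limma unadjusted p = 0.0213, adjusted p = 0.905). The 2 MRV animals differed from each other by 1.46 log2, more than MRV and MR did. Without MRV1 the differences to MR and NC were -0.24 and -0.68, and without MRV2 they were -1.70 and -2.14. In the fit with the actin ratio the 3 differences were -0.78, -0.11 and -0.89 in the same order.

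FN1, which encodes fibronectin, and SPARC, a collagen-binding matricellular protein, differed widely between the control animals. FN1 read 1265 and 557 in NC, 1062 and 1354 in MR animals and 779 and 936 in MRV animals. SPARC read 8726 and 4327 in NC, 6017 and 6388 in MR animals and 4631 and 5336 in MRV animals. For both genes each MRV value was below each MR value while the NC animals lay on both sides of all MRV values, and the log2 differences in MRV minus MR were -0.48 and -0.32. A dimmer SPARC probe set differed by 0.10. When the actin ratio was a covariate of the fit, these differences were 0.057 and 0.24, of the opposite sign.

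The small leucine-rich proteoglycans bind collagen fibrils and set their spacing. BGN (biglycan) read 683 and 522 in NC, 779 and 836 in MR animals and 542 and 838 in MRV animals, higher in MR than in NC without overlap by 0.43 log2. That difference was 0.61 without NC1, 0.24 without NC2 and 0.23 in the fit with the actin ratio. LUM (lumican) read 1979 and 1064 in NC, 1511 and 1949 in MR animals and 1412 and 1465 in MRV animals. DCN (decorin) read 5126 and 3752 in NC, 3821 and 4277 in MR animals and 4428 and 5316 in MRV animals, where it was 0.26 log2 above MR without overlap, while LUM was 0.25 log2 below. The DCN difference was 0.13 without MRV2 and 0.55 in the fit with the actin ratio, and the LUM difference was -0.070 without MR2 and 0.027 in that fit. VCAN, the large proteoglycan versican, read 229 to 310 over all arrays, and its brighter and dimmer probe sets differed in sign, at 0.03 and -0.16 in MR minus NC and 0.08 and -0.21 in MRV minus MR.

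All 5 tested fibrillar collagen genes and all 3 laminin genes had lower means in MR than in NC, with medians of -0.16 and -0.26 log2. Of all 5407 genes 2565 were lower in that comparison. None of the collagen and laminin genes passed the threshold, and the differences of COL1A2 and COL2A1 were both -0.03 (SE 0.15 and 0.12). COL5A3, a chain of the type V collagen that nucleates fibrils, read 433 and 345 in NC, 295 and 287 in MR animals and 271 and 293 in MRV animals. Both lesioned groups lay below both controls, with log2 differences of -0.39 and -0.43 (SE 0.14, limma unadjusted p = 0.0304 and 0.0206, adjusted p = 0.999955 and 0.905). Without NC1 these were -0.23 and -0.27. COL5A1, the main chain of the same collagen, read 762 and 558 in NC, 436 and 539 in MR animals and 1445 and 575 in MRV animals. It was higher in MRV than in MR by 0.89 log2 without overlap, a value that was 0.24 without MRV1, 1.54 without MRV2 and 0.20 in the fit with the actin ratio. In that fit its difference of -0.42 in MR minus NC was -0.14. Its 2 other tested probe sets differed by -0.47 and -0.24 in MR minus NC. In MRV minus MR they differed by 0.10 and 0.37, both with overlap.

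COL1A2, a chain of type I collagen, read 189 to 247 over all arrays, with log2 differences of -0.03 and 0.08 in MR minus NC and MRV minus MR. Its other probe set lay below the limit at 10.2 to 11.9, so the signal of this gene depended on the probe set. COL2A1 and COL5A2 read 129 to 152 and 57.0 to 80.2. COL3A1, the chain of type III collagen, lay below the limit at 75.9 and 58.4 in NC, 42.1 and 57.8 in MR animals and 51.9 and 39.0 in MRV animals, and COL11A1 read 27.2 to 41.0. The array annotation used here gave no probe set with the single symbol COL1A1 or ELN, so the other chain of type I collagen and elastin were not analysed here.

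COL15A1, a collagen of the basement membrane zone, read 3155 and 1933 in NC, 1527 and 1598 in MR animals and 2504 and 1976 in MRV animals. Both MR animals were below the 4 others. The log2 difference was -0.66 in MR minus NC (SE 0.25, limma unadjusted p = 0.0399, adjusted p = 0.999955) and 0.51 in MRV minus MR (SE 0.25). Without NC1 the first was -0.30, without NC2 it was -1.01, and without MRV1 the second was 0.34.

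The laminin chains, which assemble into the cross-shaped trimers of the basement membrane, all had lower means in MR than in NC, and only LAMC1 did so without overlap. LAMC1 read 2787 and 2406 in NC, 1713 and 2167 in MR animals and 2331 and 2143 in MRV animals, a log2 difference of -0.42 in MR minus NC (SE 0.15, limma unadjusted p = 0.0351, adjusted p = 0.999955). It was -0.26 without MR1 and -0.22 with the LAMC1 probe sets averaged. LAMB2 read 3506 and 2716 in NC, 2424 and 2723 in MR animals and 3237 and 2710.3 in MRV animals, where NC and MR overlapped. LAMB1 read 425 and 248 in NC, 252 and 324 in MR animals and 297 and 383 in MRV animals. Its lower mean in MR rested on NC1, as both MR values were above NC2. In MRV minus MR the 3 laminin genes had log2 differences of 0.20 to 0.23, all with overlap. The 4 tested LAMC1 probe sets differed by -0.42 to -0.11 in MR minus NC and by -0.02 to 0.21 in MRV minus MR.

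COL4A2, the network collagen of the basement membrane, read 1622 and 1273 in NC, 1111 and 1378 in MR animals and 1039 and 1353 in MRV animals, and all groups overlapped. Type VI collagen forms beaded filaments around cells. Its chain gene COL6A3 read 2555 and 1528 in NC, 1158 and 1705 in MR animals and 1073 and 1267 in MRV animals. Both MRV animals were below both controls, with a log2 difference of -0.75 (SE 0.29, limma unadjusted p = 0.0444, adjusted p = 0.905), and the difference was -0.38 without NC1. COL6A2, another chain of that collagen, read 594 in NC1 and 441 to 473 elsewhere. COL7A1, COL8A1 and COL17A1 read 43.4 to 99.4 with log2 differences between -0.17 and 0.25 in the 3 comparisons, and COL10A1 lay below the limit.

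**Figure D3:**
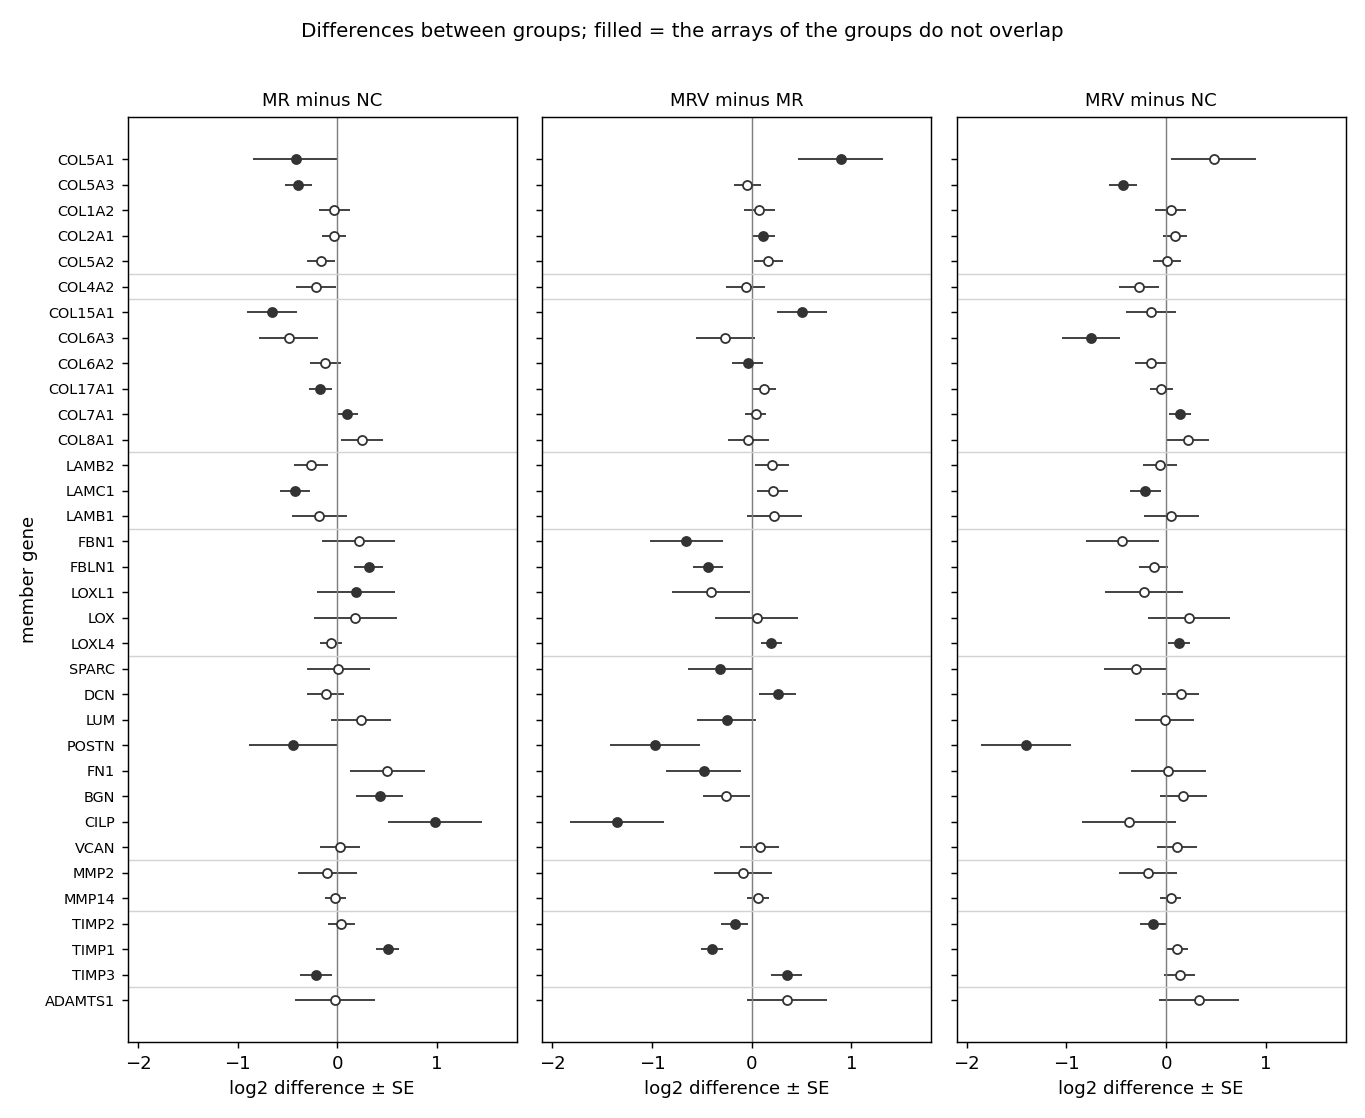
Log2 differences with moderated SE for the 34 tested matrix genes in the 3 comparisons, in order of role from collagens (top) to proteases and inhibitors (bottom); filled points mark genes whose arrays do not overlap between the 2 groups. The left and middle comparisons use the same MR arrays, and none of the points passed the adjusted threshold.

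Elastic fibre genes were lower in MRV than in MR for fibrillin and fibulin. FBLN1, which encodes fibulin-1, read 252 and 296 in NC, 316 and 373 in MR animals and 232 and 268 in MRV animals. Both MR animals were above all others, with log2 differences of 0.32 in MR minus NC (SE 0.15) and -0.44 in MRV minus MR (SE 0.15, limma unadjusted p = 0.0251, adjusted p = 0.63). The first was 0.20 without NC1 and 0.20 without MR2. FBN1, the microfibril protein fibrillin-1, read 1891 and 843 in NC, 1303 and 1656 in MR animals and 908 and 945 in MRV animals. Both MRV values were below both MR values, and the fitted gap was -0.66 log2 (SE 0.37, adjusted p = 0.757 by limma). The gap was -0.24 in the fit with the actin ratio. In the brighter probe set the controls enclosed all other values. The dimmer FBN1 probe set differed by -0.31 in MRV minus MR, with overlap.

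The crosslinking enzymes had no common direction. LOX read 109.8 and 255 in NC, 149.8 and 249 in MR animals and 171 and 236 in MRV animals, with the second animal of each group above the first. LOXL1 read 275 and 268 in NC, 286 and 338 in MR animals and 142 and 368 in MRV animals, so that MRV held both the lowest and the highest value. LOXL4 read 94.9 to 118 over all arrays, and its 2 tested probe sets differed by -0.07 and 0.05 in MR minus NC.

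For MRV minus MR, 6 of 34 matrix genes were higher and 10 lower without overlap, shares of 17.6% and 29.4%, beside 15% and 28.6% of all genes. With at least 0.5 log2 besides, COL15A1 and COL5A1 were higher and CILP, FBN1 and POSTN lower, where 1.61% and 2.98% of all genes were. The median was 0.00 for the matrix genes, with 17 of 34 higher, and -0.03 for all genes. In the 8 proteoglycan and matricellular genes 6 were lower, with a median of -0.29, and 0 passed the threshold. Without MRV1 the genes past 0.5 log2 were 1 higher, TIMP3, and 2 lower, CILP and FBN1. Without MR1 they were 1 higher and 6 lower, and without MRV2 they were 3 higher and 7 lower. In the fit with the actin ratio they were COL15A1, DCN and TIMP3 higher and CILP and FBLN1 lower, and with probe sets of a gene averaged they were COL15A1 higher and CILP and POSTN lower.

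For MRV minus NC, 2 of 34 matrix genes were higher and 5 lower without overlap, where 13.3% and 21.7% of all genes were. With at least 0.5 log2 besides, 0 were higher and 2, COL6A3 and POSTN, were lower, where 0.703% and 2.35% of all genes were. The median was 0.00 for the matrix genes and -0.02 for all genes. Without NC1 the counts were 2 higher, COL5A1 and FN1, and 1 lower, POSTN. Without NC2 they were 1 higher and 8 lower. Without MRV2 they were 2 higher and 5 lower.

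**Figure D4:**
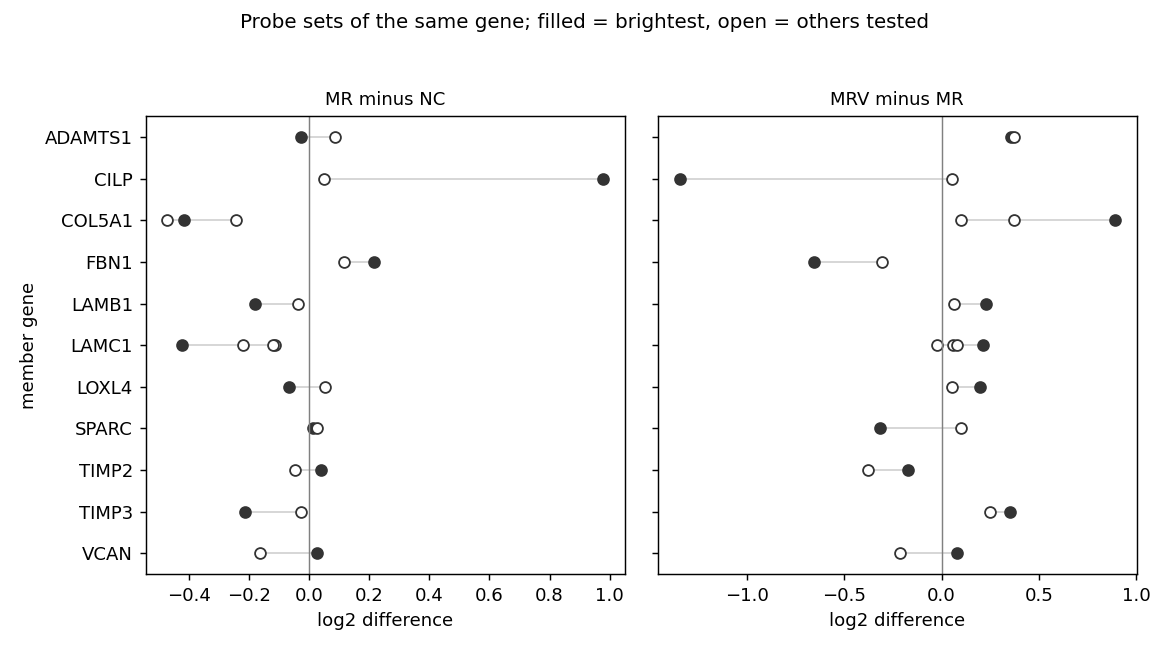
Log2 differences of all tested probe sets for the 11 matrix genes with more than 1, in MR minus NC (left) and MRV minus MR (right); filled points are the brightest probe set of a gene and open points the others. The CILP probe sets lie 0.93 log2 apart in MR minus NC, while those of COL5A1 and FBN1 lie on the same side of 0 in each panel.

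Matrix genes differed more between animals of the same group than genes in general. The median gap between the 2 animals was 0.34, 0.23 and 0.26 log2 in NC, MR and MRV for the 34 matrix genes, beside 0.17, 0.13 and 0.12 for the 5407 genes. The gap was at least 0.5 log2 for 10, 3 and 7 of the matrix genes, shares of 29.4%, 8.82% and 20.6%, beside 11.5%, 5.88% and 5.57% of all genes. These shares are a description without a test. The 10 genes in NC were FN1, FBN1, SPARC, LUM, LAMB1, COL6A3, COL15A1, MMP2 and COL8A1, higher in NC1, and LOX, higher in NC2. In MRV the 7 genes were CILP, POSTN, LOXL1, MMP2 and BGN, higher in MRV2, and COL5A1 and ADAMTS1, higher in MRV1.

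The same animal of a group was mostly the higher one across matrix genes. NC1 was above NC2 for 23 of 34 genes (60.3% of all genes), MR2 above MR1 for 24 of 34 (56.7% of all genes) and MRV2 above MRV1 for 28 of 34 (49.2% of all genes). NC1 held the highest value for 13 of the 34 genes (26.4% of all genes) and NC2 the lowest for 11 (20.3% of all genes). MRV2 held the lowest for 0 (19.2% of all genes). Macrophage markers, of which 7 of 10 had a probe set and 5 were tested, had the same order within groups. Their summed intensities were 1034 and 621 in NC, 527 and 895 in MR animals and 509 and 976 in MRV animals. Endothelial sums, at 3935 and 3775 in NC, 3802 and 4199 in MR animals and 3512 and 3954 in MRV animals, had that order too. Among the single endothelial markers only ESAM and TEK had it in every group. So did pericyte sums, at 2565 and 1943, 2172 and 2388, and 2117 and 2199, though of the pericyte markers only RGS5 had it in every group. The other marker sums did not have that order. The fibroblast sum departed from it only in MRV, where GSN, its largest part, read 11277 and 8020.5. Of the fibroblast markers DPT, PDGFRL, TCF21 and THY1 had the order in every group, and FAP, GSN and MFAP5 did not. The part of these cell types in the order of the matrix genes was not tested.

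**Figure D5:**
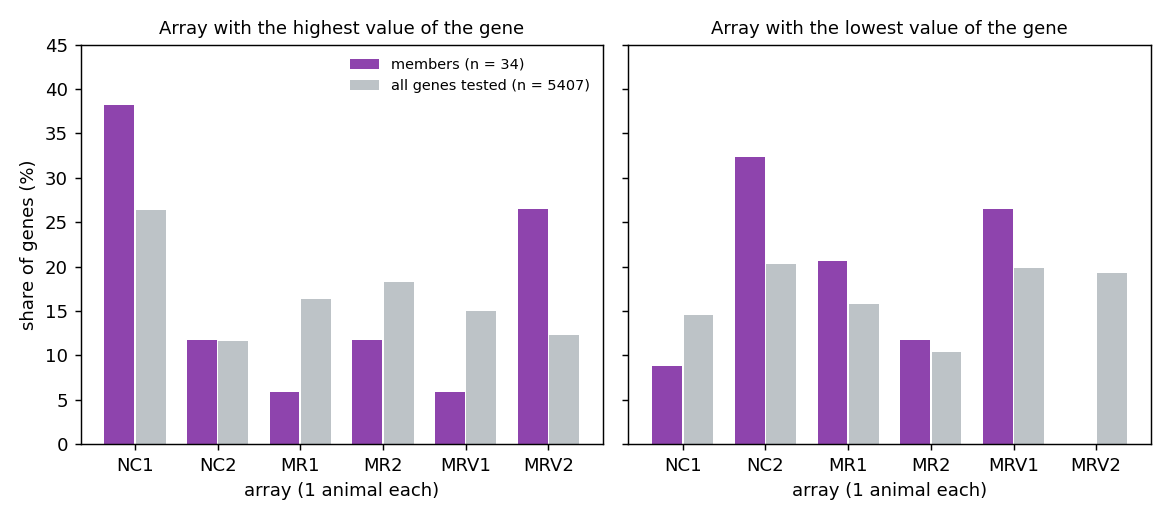
Share of genes whose highest (left) or lowest (right) value over the 6 arrays fell on each array, for the 34 matrix genes and for all 5407 tested genes. For the matrix genes NC1 holds 38.2% of the highest values and MRV2 26.5%, and MRV2 holds none of the lowest. For all genes NC1 holds 26.4% of the highest values and MRV2 12.4%, and MRV2 holds 19.2% of the lowest.

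Fibroblast markers outside the matrix genes, with 7 of 10 measured and all 7 tested, summed to 18053 and 13848 in NC, 11724 and 14621 in MR animals and 13994 and 11764 in MRV animals, a sum made up mostly of GSN. Of the 7, 2 were higher and 5 lower in MRV than in MR, with a median of -0.16 log2, and 2 were higher and 5 lower in MR than in NC, with a median of -0.31. TCF21, a transcription factor of cardiac fibroblasts and one of those higher in MRV, read 239 and 146 in NC, 139 and 149 in MR animals and 202 and 249 in MRV animals, and the membrane protease FAP read 592 in NC1 and 156 to 254 elsewhere. Smooth muscle sums were lower in MRV, at 14073 and 14876, than on the other 4 arrays, at 15285 to 16660, where DES made up the greater part. Of these 6 markers 3 were higher and 3 lower in MRV than in MR, and SMTN was highest in MRV. Adipocyte sums were 5529 and 4160 in NC, 4376 and 3785 in MR animals and 3030 and 2855 in MRV animals, sums made up mostly of FABP4 and LPL. Of the 7 tested adipocyte markers 4 were higher in MRV than in MR, with a median of 0.06 log2, and 6 were lower in MR than in NC, with a median of -0.56. Schwann cell sums, which rest on 2 of 7 markers and mostly on S100B, were higher in MR, at 687 and 675, than elsewhere, at 452 to 597, while the other marker, SOX10, was highest in MRV2. Blood sums were lower in MRV, at 472 and 443, than elsewhere, at 530.1 to 593. Endothelial sums ran from 3512 to 4199 and pericyte sums from 1943 to 2565 with all groups overlapping. All 3 epicardial markers lay below the limit, and so did 3 of the 4 valve and cartilage markers, of which HAPLN1 and SOX9 read 9.0 to 13.9. The part of these cell types in the matrix values was not tested.

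Among 16 tested matrix genes outside the rule, 3 were higher and 13 lower in MRV than in MR, with a median of -0.23 log2, and 0 passed the threshold. Of all 5407 genes 3112 were lower in that comparison, with a median of -0.03 log2. SPP1, the matricellular protein osteopontin, read 199.7 and 113 in NC, 248 and 138 in MR animals and 32.2 and 63.0 in MRV animals. Both MRV animals were below all others, with log2 differences of -1.71 to MR and -1.43 to NC (SE 0.39, limma adjusted p = 0.506 and 0.905). In the fit with the actin ratio these were -0.58 and -0.76. THBS2 (thrombospondin-2) read 773 and 406 in NC, 602 and 632 in MR animals and 351 and 378 in MRV animals, and the small proteoglycan gene ASPN read 491 and 350.0 in NC, 557 and 550 in MR animals and 249 and 439 in MRV animals. THBS1 (thrombospondin-1) was lower than NC in both MR and MRV, with log2 differences of -0.70 and -0.92, the first being -0.45 without MR1. In MRV minus MR the difference of THBS2 was -0.74, or -0.28 in the fit with the actin ratio, and that of ASPN was -0.71, or -0.029 in that fit and -0.32 without MRV1. CYR61, a matricellular protein of the CCN family, read 864 and 285 in NC, 435 and 269 in MR animals and 154 and 116 in MRV animals. In MR minus NC the list had 9 higher and 7 lower, with ASPN and EMILIN2 at 0.40 and 0.50 log2. ASPN was 0.13 in the fit with the actin ratio and 0.17 without NC2.

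The receptors that cells use to hold matrix gave 10 tested genes. Of these 6 were higher in MR than in NC and 8 lower in MRV than in MR, with 0 past the threshold. Of all 5407 genes 2842 were higher in the first comparison and 3112 lower in the second. DDR1, a tyrosine kinase receptor for collagen, read 641 and 541 in NC, 978 and 856 in MR animals and 502 and 574 in MRV animals. Both MR animals were above all others, with log2 differences of 0.62 to NC and -0.75 in MRV minus MR (SE 0.14, limma adjusted p = 0.999955 and 0.433), the latter -0.44 in the fit with the actin ratio. ITGA5, the integrin chain that binds fibronectin, read 326 and 246 in NC, 174 and 174 in MR animals and 192 and 220.3 in MRV animals. ITGAV, an integrin chain for vitronectin and fibronectin, differed by 0.31 log2 in MR minus NC. CD47, a receptor of thrombospondin, and ITGB1 were lower in MRV than in MR, with log2 differences of -0.38 and -0.24. With its probe sets averaged CD47 differed by -0.0061. The ITGB1 difference ranged from -0.35 to -0.13 without single arrays, and the smallest over all alternatives was -0.084. SDC4 differed by 0.17 log2 and CD47 by -0.22 in MRV minus NC.

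Genes of collagen processing had medians of -0.051, 0.015 and -0.056 log2 over 14 tested genes, in the order MR against NC, MRV against MR and MRV against NC, with 0 past the threshold. LEPROT, which is not known as a collagen processing gene, was taken out of this list after its values were seen. SEC24D, part of the vesicle coat that exports procollagen, read 117 and 104 in NC, 78.6 and 86.9 in MR animals and 78.0 and 92.1 in MRV animals. SERPINH1, the collagen chaperone, was higher in MRV than in MR by 0.33 log2 without overlap, a difference of 0.043 in the fit with the actin ratio. P4HA2 and SEC23A were lower in MR than in NC, with log2 differences of -0.21 and -0.16, and SEC23A differed by -0.13 in MRV minus MR. FKBP10 was higher in MRV than in NC by 0.28 log2.

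Of 20 tested genes of other proteolysis around the matrix, 12 were higher in MR than in NC and 15 lower in MRV than in MR, with 0 past the threshold. The same counts over all 5407 genes were 2842 and 3112. SERPINE2, an inhibitor of thrombin and plasminogen activators, read 678 and 648 in NC, 1006 and 1027 in MR animals and 811 and 1252 in MRV animals, so both lesioned groups were above both controls. Its difference of 0.59 in MRV minus NC was 0.29 without MRV2 and 0.90 without MRV1. DPP4, a membrane peptidase, read 403 and 490.0 in NC, 236 and 327 in MR animals and 526 and 432 in MRV animals, with both MR animals below all others. Its difference of 0.74 in MRV minus MR was 0.25 in the fit with the actin ratio, and that of -0.65 in MR minus NC was -0.42 without MR1. BSG, a membrane protein known to induce MMPs, read 1295 and 1275 in NC, 1316 and 1324 in MR animals and 989 and 1103 in MRV animals. Both MRV animals were lowest, with a log2 difference of -0.33 to MR (SE 0.11, limma adjusted p = 0.627). SERPINB2, an inhibitor of urokinase, was lower in MRV than in MR and NC, with log2 differences of -0.999 and -0.69.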

How the data were processed

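The authors deposited linear intensities, with 1 value for each probe set on each array. The tools listed in the submitters' processing notes are MAS5 and RMA, and which of them gave these values was not stated. The 124 control probe sets were left out. Gene symbols came from the platform annotation, and all 46 matrix genes matched RefSeq genes (assembly Sscrofa11.1) by Entrez ID with 0 symbols changed. Values were tested as log2(intensity + 16) over the 14399 probe sets whose mean log2 value reached the 40th percentile, with R 4.3.3 and limma 3.58.1 (lmFit, eBayes), fitted to all 6 arrays with group means as the only terms, 3 residual and 2.81 prior degrees of freedom, and Benjamini-Hochberg adjustment per comparison. The fit was tested on simulated data with independent noise and changes set in MR only. That setting did not include an outlying array such as NC1. The number of arrays limits the precision.

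The genes, lists and tests were chosen with earlier results of these data known. Genes named were those without overlap and at least 0.5 log2 apart, the brightest of each role, the single genes of the rule, the TIMP genes, genes whose probe sets differ in sign, and up to 3 genes per related list by moderated statistic. Further genes were added after their values were seen. Alternatives were other pseudocounts, filters and normalization, probe set averages, 4-array fits, a replicate block, the actin ratio, and leaving out each array. No sequences are shown.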

Additional observations from a re-analysis of the deposited data

How the results depend on the processing

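No matrix gene passed the threshold in any of the 3 comparisons under any of the 15 alternatives, with smallest adjusted p-values of 0.287 in MR minus NC, 0.336 in MRV minus MR and 0.153 in MRV minus NC (limma). The number of probe sets called over the whole array was 0 in place of 1 in MR minus NC with a pseudocount of 1, no filter, quantile normalization, 4 arrays, the replicate block, the actin covariate, and without each array. It was 2 in MRV minus MR with the replicate block, and 2 and 1 in MRV minus NC with the 60th percentile filter and with probe set averages. Matrix genes past 0.5 log2 without overlap were 1 higher in MR minus NC and 1 higher in MRV minus MR with a pseudocount of 64, 1 higher in MRV minus MR with probe set averages, and 1 higher and 2 lower in MR minus NC with the actin covariate. That covariate also gave 3 higher and 2 lower in MRV minus MR, where COL5A1, FBN1 and POSTN were no longer among them, and probe set averages left FBN1 and COL5A1 out. Without single arrays these counts ranged from 1 to 8 higher and 1 to 6 lower in MR minus NC, from 1 to 3 higher and 2 to 7 lower in MRV minus MR, and from 0 to 2 higher and 1 to 8 lower in MRV minus NC, where fewer arrays make overlap rarer. The median of the matrix genes ranged from -0.14 to 0.039, -0.097 to 0.12 and -0.13 to 0.079 (in the same order) without single arrays, and was 0.15 in MRV minus MR with the actin covariate. With that covariate the sign turned for LOXL1 in MR minus NC (-0.077) and for COL6A2 (0.14), SPARC (0.24), LUM (0.027) and FN1 (0.057) in MRV minus MR. It also turned for CD47 in MRV minus NC with probe set averages (0.096), and EMILIN2 in MR minus NC ranged from -0.080 without NC2 to 1.09 without NC1. The cause was not tested. Deviations from the group means of arrays of the same number had r = 0.34 for NC and MR, 0.21 for NC and MRV and 0.018 for MR and MRV. Whether such arrays share more than a number was not tested. The block called 0 matrix genes.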
